A study of Mus musculus with 10 samples.

Results

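IGHV1-80 is a variable gene of the mouse immunoglobulin heavy chain, and a B cell that rearranges it carries its sequence in every antibody it makes. The gene was chosen by its measured share of IgG clonotypes and by the V mismatches of its IgG lineages in an earlier description of these data, so both are described here without a test. Its members were the productive heavy-chain sequences whose V call named IGHV1-80 alone, 9685 of 313384 productive heavy-chain sequences (3.09%) in 10 mice. A rearrangement (J gene and junction) that occurred in several mice was assigned to the mouse with the highest count, which took out 288 sequences and left 9397. All 10 mice were C57BL/6 wild-type animals that received GL261 glioma cells, a mouse glioma line, by intracranial injection, and their deep cervical lymph nodes were taken on day 20. The tested mice received an anti-CTLA-4 antibody (n = 5), which blocks an inhibitory receptor of T cells, and the controls an isotype IgG (n = 5). No tumour-free mice were among these samples, and the sequencing read bulk RNA of all cells of the node rather than sorted B cells. In such bulk RNA, fewer cells of a type and less RNA per cell cannot be told apart.

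A heavy chain is assembled from a V, a D and a J gene, and the junction that joins them encodes the third complementarity-determining region (CDR3), the most variable of the loops that touch antigen. The V gene itself encodes the other loops, CDR1 and CDR2, held by framework regions (FWR). Naive B cells express IgM and IgD with an unmutated V gene. After activation a B cell may switch to IgG, IgA or IgE, and in germinal centres the enzyme AID places point mutations in the V gene, with a preference for short hotspot motifs. Switched plasma cells hold far more heavy-chain RNA than resting cells, so a count and a number of different sequences measure different things. Here a clonotype was a V call, J gene, junction and constant gene within a mouse. A lineage joined sequences of a mouse with the same V and J genes and the same junction length by single linkage. Each joined junction had at least 90% nucleotide identity to some other member, so members could be less alike than that among themselves. The count is the whole number deposited for each sequence, for which reads or molecules are not stated.

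The germline sequence shows where the mutations described below fell. It is the IGHV1-80 germline aligned in the deposited tables, numbered from 1 at the first nucleotide of FWR1, and capitals mark the 13 positions mismatched in at least 10% of the IgG sequences of the largest lineage, found in isotype mouse 5. The other 2 sequences are the most counted and the most mismatched IgG sequence of that lineage up to the junction, with their mismatches to germline in capitals.
germline IGHV1-80: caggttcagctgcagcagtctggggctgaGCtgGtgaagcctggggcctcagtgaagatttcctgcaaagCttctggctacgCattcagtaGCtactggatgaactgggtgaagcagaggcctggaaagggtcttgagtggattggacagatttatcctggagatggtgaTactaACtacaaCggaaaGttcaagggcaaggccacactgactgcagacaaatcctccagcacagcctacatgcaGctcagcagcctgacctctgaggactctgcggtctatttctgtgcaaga
most counted: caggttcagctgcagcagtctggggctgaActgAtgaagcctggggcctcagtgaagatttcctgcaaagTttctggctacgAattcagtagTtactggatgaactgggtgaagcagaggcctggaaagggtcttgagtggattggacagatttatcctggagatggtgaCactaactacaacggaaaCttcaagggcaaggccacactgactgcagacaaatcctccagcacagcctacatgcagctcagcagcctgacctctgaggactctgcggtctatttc
most mismatched: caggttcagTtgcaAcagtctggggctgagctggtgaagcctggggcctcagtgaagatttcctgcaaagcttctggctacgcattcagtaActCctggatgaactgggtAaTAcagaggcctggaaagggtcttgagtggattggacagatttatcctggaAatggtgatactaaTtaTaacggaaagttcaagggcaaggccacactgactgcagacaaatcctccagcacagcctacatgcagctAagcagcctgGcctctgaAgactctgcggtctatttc
The most counted sequence carried 7 V mismatches (G30A, G34A, C71T, C83A, C93T, T171C and G189C, the germline base first and the position counted from 1 at the start of FWR1) and the most mismatched sequence 13. The deposited count was 26 for the most counted and 1 for the most mismatched sequence.

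Junctions are shown for the IGHV1-80 IgG clonotype with the highest deposited count in each mouse. That count ran from 2 in anti-CTLA-4 mouse 4 to 2754 in anti-CTLA-4 mouse 3, and antibody protein was not measured. Capitals mark bases that the deposited alignment gave to no V, D or J germline base.
anti-CTLA-4 mouse 1, CDR3 AYDYWYFDV IGHJ1: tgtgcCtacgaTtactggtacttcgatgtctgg
anti-CTLA-4 mouse 2, CDR3 ARYMDY IGHJ4: tgtgcaagatAtatggactactgg
anti-CTLA-4 mouse 3, CDR3 ARSGYSNFDY IGHJ2: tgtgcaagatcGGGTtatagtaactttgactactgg
anti-CTLA-4 mouse 4, CDR3 ARWGTSAMDY IGHJ4: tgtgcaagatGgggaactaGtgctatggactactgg
anti-CTLA-4 mouse 5, CDR3 LSTVVADWYFDV IGHJ1: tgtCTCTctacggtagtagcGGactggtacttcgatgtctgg
isotype mouse 1, CDR3 ARGTGPDY IGHJ2: tgtgcaagaGGGactgggCCCgactactgg
isotype mouse 2, IGHJ2: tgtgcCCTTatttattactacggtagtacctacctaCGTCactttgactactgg
isotype mouse 3, CDR3 ARSGLLFYYAMDY IGHJ4: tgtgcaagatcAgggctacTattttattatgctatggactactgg
isotype mouse 4, IGHJ4: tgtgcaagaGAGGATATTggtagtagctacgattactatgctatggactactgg
isotype mouse 5, CDR3 AREPPYVMDY IGHJ4: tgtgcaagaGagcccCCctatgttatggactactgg
The 10 junctions were all different and ran from 24 to 54 nucleotides. Their J genes were IGHJ1 in anti-CTLA-4 mice 1 and 5, IGHJ2 in anti-CTLA-4 mouse 3 and isotype mice 1 and 2, and IGHJ4 in the other 5 mice.

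Of the kept sequences, 6535 were IgM, 2300 IgD, 494 IgG, 41 IgA and 10 IgE, and 17 had no constant gene. They made 8619 classed clonotypes, of which 6158 were IgM, 2217 IgD, 223 IgG, 17 IgA and 4 IgE. IgG made up 40.0% of the deposited count of the gene (13274 of 33210). Among 108 single-gene IGHV names, IGHV1-80 ranked 6 in use, at 3.15% ± 0.262 of all classed clonotypes (SD, n = 10 mice). Productive heavy-chain sequences per mouse ranged from 23685 to 46107 and their deposited counts from 159157 to 362445. All V calls of the gene but 1, a joint call with IGHV1-82, named it alone. IGHV1-82 was the gene with the most similar germline, different at 11 of 285 nucleotides (96.1% identity), followed by IGHV1-77 at 29 and IGHV1-83 at 30 differences. In a RefSeq gene table of the GRCm38.p6 assembly, used for names and order alone, Ighv1-80 lies between Ighv1-79 and Ighv1-81.

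In IgM, the use of IGHV1-80 overlapped between the groups. Its share of IgM clonotypes was 3.40, 3.53, 3.26, 2.80 and 2.68% in anti-CTLA-4 mice 1 to 5, against 3.05, 2.98, 3.33, 3.34 and 2.62% in isotype mice 1 to 5. The ranges of the groups overlapped over most of their width. The log2 fold change of anti-CTLA-4 over isotype was 0.03 (SE 0.06, adjusted p = 0.901, edgeR quasi-likelihood test over all IGHV names). In that fit 1 of 94 IGHV names, 1.06%, passed an adjusted p of 0.05, and IGHV1-80 was not it. By deposited count in place of clonotypes the log2 fold change in IgM was 0.65 (SE 0.46, adjusted p = 0.484, edgeR).

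The groups overlapped in IgD too. IGHV1-80 made up 3.30, 3.30, 3.16, 3.38 and 2.94% of IgD clonotypes in anti-CTLA-4 mice, against 3.03, 3.11, 3.53, 3.51 and 3.10% in isotype mice. The log2 fold change was -0.02 (SE 0.07, adjusted p = 0.931, edgeR). None of 78 names passed in IgD (0%), with 4 at an unadjusted p under 0.05, and DESeq2 also called 0. Over all classes together the log2 fold change was 0.02 (SE 0.07, adjusted p = 0.986, edgeR), with 0 of 97 names called (0%), 12 at an unadjusted p under 0.05 and 0 by DESeq2. By deposited count the all-class log2 fold change was 1.19 (SE 0.80, adjusted p = 0.398, edgeR).

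IgG use varied widely between mice. IGHV1-80 made up 2.25, 5.08, 4.64, 0.368 and 0.780% of IgG clonotypes in anti-CTLA-4 mice 1 to 5 (mean 2.62 ± 2.16%, SD, n = 5). In isotype mice 1 to 5 the shares were 1.39, 2.26, 2.02, 2.04 and 33.0% (8.14 ± 13.9%). Isotype mouse 5 stood apart, with 64 of its 194 IgG clonotypes in this gene (95% Clopper-Pearson interval 26.4 to 40.1%, which covers counting error only), while the other 9 mice overlapped. At the low end, anti-CTLA-4 mouse 4 had 1 of 272 (0.00931 to 2.03%).

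The direction of the mean difference in IgG rested on isotype mouse 5. Anti-CTLA-4 minus isotype was -5.51 percentage points, and without isotype mouse 5 it was 0.698. With each lineage counted once it was 1.11, where the 64 clonotypes of that mouse formed 1 of its 65 IgG lineages (1.54%). By lineages, the share was 4.69, 5.81, 6.05, 0.862 and 1.25% in anti-CTLA-4 mice, against 2.88, 1.94, 3.47, 3.28 and 1.54% in isotype mice. By deposited count the gene held 0.404, 3.01, 2.87, 0.0154 and 0.250% of IgG in anti-CTLA-4 mice, against 0.0659, 1.29, 0.698, 1.80 and 4.48% in isotype mice. The 33.0% of IgG clonotypes in isotype mouse 5 therefore carried 4.48% of its IgG count.

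**Figure D1:**
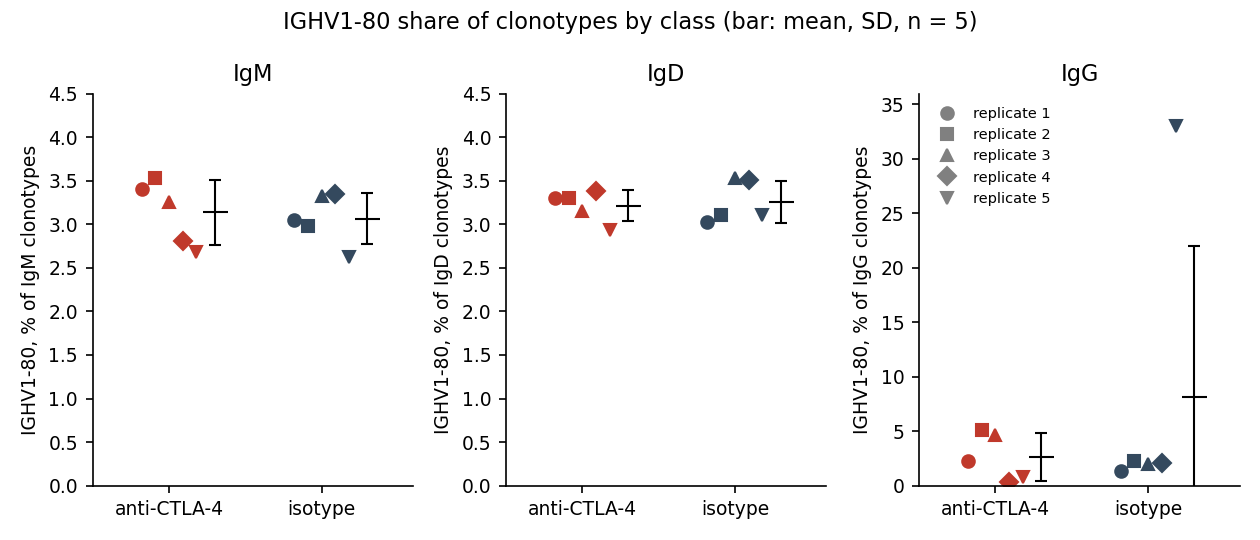
IGHV1-80 share of the clonotypes of each class (percent), in IgM, IgD and IgG, for 5 anti-CTLA-4 mice (red) and 5 isotype mice (dark blue), with 1 marker shape per replicate number. Bars give the mean and SD of 5 mice, the IgG axis has its own scale, and the lower SD bar of isotype IgG is cut off by the axis at 0. In IgM and IgD the groups lie between 2.62 and 3.53%, and in IgG isotype mouse 5 lies at 33.0% with all other mice at 5.08% or less.

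Rearrangements found in more than 1 mouse touched IgG in some animals. In anti-CTLA-4 mouse 4, 10 of 11 IgG sequences (count 123 of 125) came from rearrangements counted more often in some other animal, and in isotype mouse 4, 4 of 9 (count 55 of 159). None of the 221 IgG sequences of isotype mouse 5 did. With those rearrangements kept, the difference in IgG use was -5.25 percentage points.

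IgA and IgE held few IGHV1-80 clonotypes. IgA had 0, 8, 3, 0 and 2 clonotypes in anti-CTLA-4 mice, against 0, 2, 1, 0 and 1 in isotype mice. The 8 clonotypes of anti-CTLA-4 mouse 2 were 4.12% of its IgA clonotypes. The 4 IgE clonotypes lay in anti-CTLA-4 mouse 3, with 1, and isotype mouse 3, with 3, and all 4 were without a V mismatch.

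The IgG sequences formed 69 lineages, 49 in anti-CTLA-4 mice and 20 in isotype mice. Per mouse there were 9, 20, 17, 1 and 2 in anti-CTLA-4 mice, against 4, 4, 9, 2 and 1 in isotype mice. Sequences of IgM or IgD joined the lineage in 35 of 49 cases in anti-CTLA-4 mice and in 9 of 20 in isotype mice. The most counted IgG sequence had no V mismatch in 34 of 49 lineages in anti-CTLA-4 mice and in 10 of 20 in isotype mice. The median of the mean mismatch numbers of the lineages was 0.636 mismatches in anti-CTLA-4 mice and 0.750 in isotype mice.

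Lineages with at least 5 IgG sequences were pooled over mice in the same way. Their most counted IgG sequence had no V mismatch in 8 of 10 in anti-CTLA-4 mice and in 1 of 4 in isotype mice. In anti-CTLA-4 mouse 3 the largest lineage, with CDR3 ARSGYSNFDY and IGHJ2, held 48 IgG sequences and a count of 4908, and its top sequence, an IgG2c, had a count of 2493 and no V mismatch. In anti-CTLA-4 mouse 2 the lineage of the short CDR3 ARYMDY held 30 IgG sequences, 25 of them IgG1, and 1 unmutated sequence took 1792 of its count of 1942 (92.3%). In anti-CTLA-4 mouse 1 the lineage of CDR3 AYDYWYFDV spanned classes, with an IgM count of 2408 beside an IgG count of 999, and 7 of its 11 IgG sequences were unmutated.

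Mutated lineages occurred in the anti-CTLA-4 mice too. A mean of 5 or more V mismatches per IgG sequence was reached by 3 of 49 anti-CTLA-4 and 3 of 20 isotype lineages. A sequence with at least 5 was held by 6 and 4 lineages, in that order. These numbers again pool mice. In anti-CTLA-4 mouse 2 the lineage of CDR3 ARSTAWFVN had 7 IgG sequences with 4 to 6 mismatches (mean 5.14), and its top sequence, with a count of 61, carried 5. Another lineage of the same mouse, with 4 IgG sequences, had a mean of 6.25. The third, that of ARGGGMDY in anti-CTLA-4 mouse 1, had a mean of 5.0 and rested on 2 IgG sequences with a total count of 2. Below that mean, the lineage of ARGVPFDY in anti-CTLA-4 mouse 1 held 5 sequences with none unmutated and a mean of 2.20. The lineages of this paragraph were named after their values were seen.

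Anti-CTLA-4 mice 4 and 5 had little IGHV1-80 IgG. The lineage of CDR3 LSTVVADWYFDV in anti-CTLA-4 mouse 5 held 5 IgG sequences with a count of 233, 3 of them unmutated. Anti-CTLA-4 mouse 4 kept 1 IgG sequence, an IgG3 with CDR3 ARWGTSAMDY, a count of 2 and the single mismatch C247T.

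The isotype mice differed among themselves. Isotype mouse 2 held a mutated lineage with CDR3 ARGAY and IGHJ3, whose 10 IgG sequences had a mean of 5.80 mismatches (range 3 to 11) and which also held 8 IgM sequences. The leading IgG clonotype of that mouse, an IgG2c with a count of 572, belonged to another lineage, and its top sequence carried G102A and G230A. In isotype mouse 1 the leading clonotype, with CDR3 ARGTGPDY, carried C31T, G92A and A175G on its top sequence (count 41). In isotype mice 3 and 4 the leading sequences, with counts of 242 and 98, had no V mismatch, and the lineage of mouse 4 was mostly IgG3 (3 of 4 IgG sequences).

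**Figure D2:**
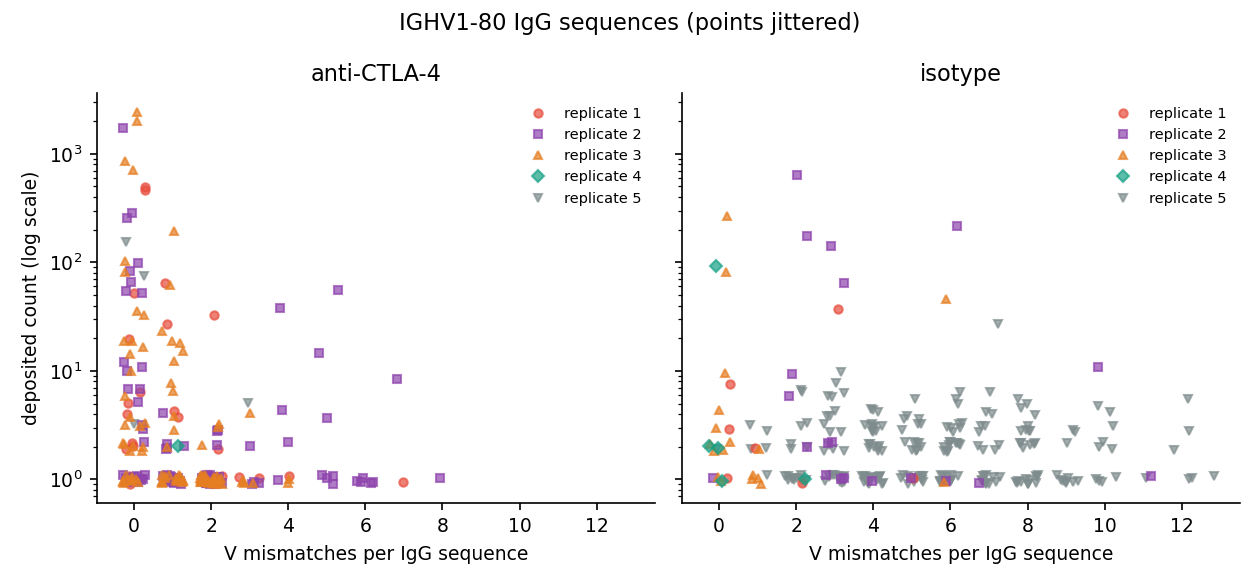
Deposited count (log axis) against the number of V mismatches for each of the 494 IGHV1-80 IgG sequences, with anti-CTLA-4 mice on the left and isotype mice on the right. Marker shape and colour give the replicate number, and points are jittered. The highest counts, 1792 in anti-CTLA-4 mouse 2 and 2493 in anti-CTLA-4 mouse 3, sit at 0 mismatches, while the 221 sequences of isotype mouse 5 spread from 0 to 13 mismatches at counts of 26 or less.

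All 221 IGHV1-80 IgG sequences of isotype mouse 5 belonged to 1 lineage with IGHJ4 and a junction of 36 nucleotides. They were 221 of the 445 IgG sequences of that mouse over all V genes, and 211 of them were IgG2b, 4 IgG1 and 6 matched several IgG genes. The lineage also held 3 IgA sequences and 1 without a constant gene, and no IgM or IgD. Its total IgG count was 497, and its most counted sequence had 26 (5.23%). It thus consisted of many different sequences with few counts each, 101 of 221 with a count of 1.

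Against the other IgG lineages of the 10 mice the lineage was large in sequences and small in counts. It ranked 5 by number of sequences among 1823 IgG lineages of all V genes. Among the 127 lineages with at least 20 IgG sequences it ranked 8 by mean V mismatches and 106 by count. The rank by count was not scaled to the total IgG count of a mouse. That total ran from 5786 in isotype mouse 4 to 288241 in anti-CTLA-4 mouse 1, and was 11092 in isotype mouse 5. In those 127 lineages the most counted sequence took a median of 53.8% of the count, against 5.23% here, the lowest of all 127, and the next lowest was 8.94%. The lineage was picked for its size and mutation, so these ranks describe it and test nothing.

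Its sequences carried a mean of 5.63 V mismatches over 285 nucleotides (SD 2.56 over sequences of 1 mouse, median 6, range 0 to 13). Only 1 of the 221 was unmutated, and 137 (62.0%) had 5 or more. Sequences with a count of 1 had a mean of 5.81 and those with 2 or more a mean of 5.48, so the mismatches were not confined to sequences seen once. In the same mouse 540 IgM sequences of IGHV1-80 had a mean of 0.135 mismatches and at most 2. In the other mice the mean per IgG sequence was 1.22, 1.89, 1.10, 1.00 and 1.17 in anti-CTLA-4 mice 1 to 5, against 1.57, 4.00, 0.944 and 0.400 in isotype mice 1 to 4.

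The mismatches were shared in part and differed between sequences. There were 242 different substitutions at 158 positions, of which 135 occurred in at least 2 sequences and none in every sequence, and the 221 sequences held 203 different sets of mismatches. The most frequent was C93T in 89 sequences (40.3%), a silent change in codon 31 of CDR1. C71T (A24V, at the end of FWR1) occurred in 66 (29.9%), C83A (A28E, CDR1) in 63 (28.5%) and G92A (S31N, CDR1) in 57 (25.8%). Codons are numbered from 1 at the start of FWR1.

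Mismatches were densest in CDR1. Per 100 nucleotides and sequence the lineage had 1.55 mismatches in FWR1, 6.60 in CDR1, 0.728 in FWR2, 2.56 in CDR2 and 1.71 in FWR3. Of 1245 mismatches, 54.8% lay at the C of a WRC or the G of a GYW motif, the AID hotspots, which make up 45 of the 285 positions (15.8%). The share that changed the amino acid was 69.1% in the CDRs and 63.0% in the frameworks. In the 273 IgG sequences of the other 9 mice, 41.2% of mismatches lay in hotspots, and 88.4% in the CDRs and 64.3% in the frameworks changed the amino acid. These values count a shared substitution once for every sequence that carries it. With each different substitution counted once, 27.7% of 242 lay in hotspots in the lineage, against 26.6% of 203 in the other 9 mice. The CDRs then held 25.6% of the substitutions of the lineage, against 39.0% of its 1245 mismatches.

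The lineage was also set against IGHV1-82, the gene with the nearest germline, at the 11 positions where the germlines differ. The IGHV1-82 base stood at those positions in 34 of the 1245 mismatches, and no sequence carried more than 2 of the 11. At an individual position the IGHV1-82 base occurred in at most 13 sequences, at position 246 (G246A).

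**Figure D3:**
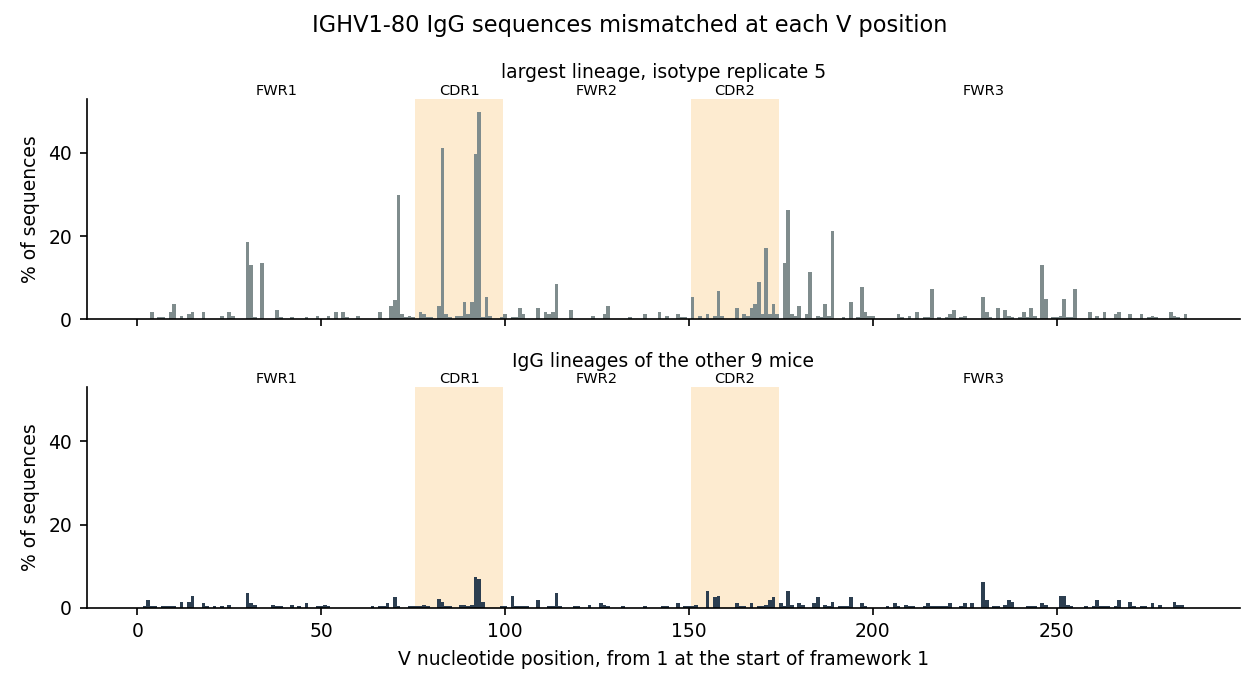
Percent of IGHV1-80 IgG sequences mismatched at each V nucleotide, counted from 1 at the start of FWR1 (x axis), in the largest lineage of isotype mouse 5 (upper panel, 221 sequences) and in the IgG lineages of the other 9 mice (lower panel, 273 sequences). Shaded bands are CDR1 and CDR2, and the highest bar of the upper panel is position 93 at 49.8%, next to position 92 at 39.8% and position 83 at 41.2%.

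The junction varied as well. The lineage held 57 different junctions that encoded 49 CDR3 sequences, and the most frequent, AREPPYVMDY, was carried by 61 IgG sequences. The most frequent junctions are given 5′ to 3′, with capitals at bases that differ from the first.
AREPPYVMDY, 61 sequences: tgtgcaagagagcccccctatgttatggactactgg
ARETPYAMDY, 14 sequences: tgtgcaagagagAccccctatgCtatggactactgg
GRESPYAMDY, 13 sequences: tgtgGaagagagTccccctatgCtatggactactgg
AREPPYTMDY, 13 sequences: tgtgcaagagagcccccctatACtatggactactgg
AREPPYAMDY, 12 sequences: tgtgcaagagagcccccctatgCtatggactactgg
AREPPYIMDY, 10 sequences: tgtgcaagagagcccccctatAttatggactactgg
ARETPYVMDY, 9 sequences: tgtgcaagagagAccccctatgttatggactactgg
AIEPPYTMDY, 9 sequences: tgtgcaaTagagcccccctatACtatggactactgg
These junctions varied mainly at codons 5 and 8, counted from the conserved cysteine. Codon 8 encoded valine in 100 of 221 sequences (45.2%), alanine in 58 (26.2%), threonine in 37 (16.7%) and isoleucine in 14 (6.33%). The germline bases aligned at codon 8 in most sequences were G, C and T, which encode alanine. The first junction above therefore differs from germline there, and a capital C in that codon marks the germline base. Codon 5 encoded proline in 160 (72.4%), serine in 33 (14.9%) and threonine in 28 (12.7%), and codon 6 proline in all 221.

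V mismatches differed with the junction. C183G occurred in all 13 sequences of GRESPYAMDY, and A151G in all 9 of ARETPYVMDY. A216G occurred in 12 of the 14 of ARETPYAMDY, and C71T in 38 of the 61 of AREPPYVMDY. C93T occurred in 10 of 10 sequences of AREPPYIMDY and in 9 of 9 of ARETPYVMDY. The mean number of V mismatches was 6.61 in the AREPPYVMDY sequences and 3.46 in both the GRESPYAMDY and the AREPPYTMDY sequences. The 3 IgA sequences all encoded AREPPYAMDY and had 1, 1 and 2 mismatches, fewer than the IgG mean of 5.63.

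How many starting rearrangements this lineage holds depends on the identity asked for. At 95% junction identity the 221 IgG sequences fell into 9 groups, the largest of 193 sequences, and at 85% they stayed in 1.

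Over all 69 IgG lineages, 5 V positions were mismatched in the most lineages. Position 92 (codon 31 of CDR1) was mismatched in 10 lineages of 4 mice, and position 93, in the same codon, in 9 lineages of 5 mice. Position 30 in FWR1 followed with 8 lineages of 4 mice, position 230 in FWR3 with 7 lineages of 5 mice and position 114 in FWR2 with 7 lineages of 4 mice. All 5 are hotspot positions. In IgM, counted by sequence and not by lineage, the same positions were mismatched in 0.490, 0.275, 0.199, 0.214 and 0.0765% of 6535 sequences, in that order. By sequence, the IgG of all mice but isotype mouse 5 was mismatched there in 7.33, 6.96, 3.66, 6.23 and 3.66%.

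V mismatches per 100 nucleotides of IgG clonotypes followed the lineages. They were 0.330, 0.695, 0.195, 0.351 and 0.263 in anti-CTLA-4 mice 1 to 5 (mean 0.367 ± 0.193), against 0.351, 1.15, 0.376, 0 and 2.02 in isotype mice 1 to 5 (0.779 ± 0.812). The groups overlapped, and the difference of -0.412 fell to -0.102 without isotype mouse 5.

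The unmutated share of IgM clonotypes differed between groups. IgM values did not enter the choice of the gene. However, IgM or IgD sequences joined 35 of 49 IgG lineages in anti-CTLA-4 mice and 9 of 20 in isotype mice. Their IgM clonotypes were not left out here, so the IgM comparison is not fully independent of that choice. IGHV1-80 IgM clonotypes without a V mismatch made up 89.0, 83.4, 87.8, 89.8 and 89.5% in anti-CTLA-4 mice 1 to 5, against 91.0, 90.1, 90.9, 91.6 and 91.2% in isotype mice 1 to 5. Every anti-CTLA-4 mouse lay below every isotype mouse. The means were 87.9 ± 2.62% and 91.0 ± 0.550% (difference -3.04 percentage points, two-sided exact permutation test, p = 0.00794, the smallest that 5 against 5 mice can give; adjusted over 3 IgM measures, 0.0238). Of the 40 IGHV genes with at least 100 IgM clonotypes in each mouse, IGHV1-80 was the only 1 whose anti-CTLA-4 mice all lay below the isotype mice (2.5% of genes), and none lay wholly above.

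Mismatch density of the IGHV1-80 IgM clonotypes gave the same direction as their unmutated share. IGHV1-80 IgM clonotypes had 0.0526, 0.0911, 0.0542, 0.0381 and 0.0455 V mismatches per 100 nucleotides in anti-CTLA-4 mice, against 0.0362, 0.0442, 0.0375, 0.0314 and 0.0363 in isotype mice. Anti-CTLA-4 mouse 4 overlapped with isotype mouse 2, and anti-CTLA-4 mouse 2 was highest. The difference of 0.0192 had an exact permutation p of 0.0159 (adjusted 0.0238). With 1 value per lineage it was 0.0125 and without clonotypes counted once 0.0294, and it passed the threshold in both.

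The IgM calls changed with the mice included. Without anti-CTLA-4 mouse 2 the difference in density was 0.0105 (exact permutation, adjusted p = 0.0714) and that in the unmutated share was -1.92 percentage points, still past the threshold, as it was without any other anti-CTLA-4 mouse or without isotype mouse 2. Leaving out isotype mouse 1, 3, 4 or 5 left each difference close to its full value, at 0.0178 to 0.0193 and -3.05 to -2.88, with adjusted p values of 0.0714 to 0.119 in these smaller exact tests. With replicate numbers as a block, both adjusted p values were 0.0938, where 5 pairs cannot give an unadjusted p below 0.0625.

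The other IGHV genes differed in the same direction without passing the test. Their unmutated share of IgM clonotypes was 86.3 ± 1.72% in anti-CTLA-4 mice and 87.7 ± 0.611% in isotype mice (difference -1.43 percentage points, exact permutation p = 0.0635, adjusted over 6 tests 0.119). The difference between IGHV1-80 and the other genes changed by -1.61 percentage points in anti-CTLA-4 minus isotype mice, with an exact permutation p of 0.0159 and an adjusted p of 0.0952. So the shift of IGHV1-80 in IgM was not shown to be particular to it after adjustment. These 6 tests were added after the IgM result was seen.

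**Figure D4:**
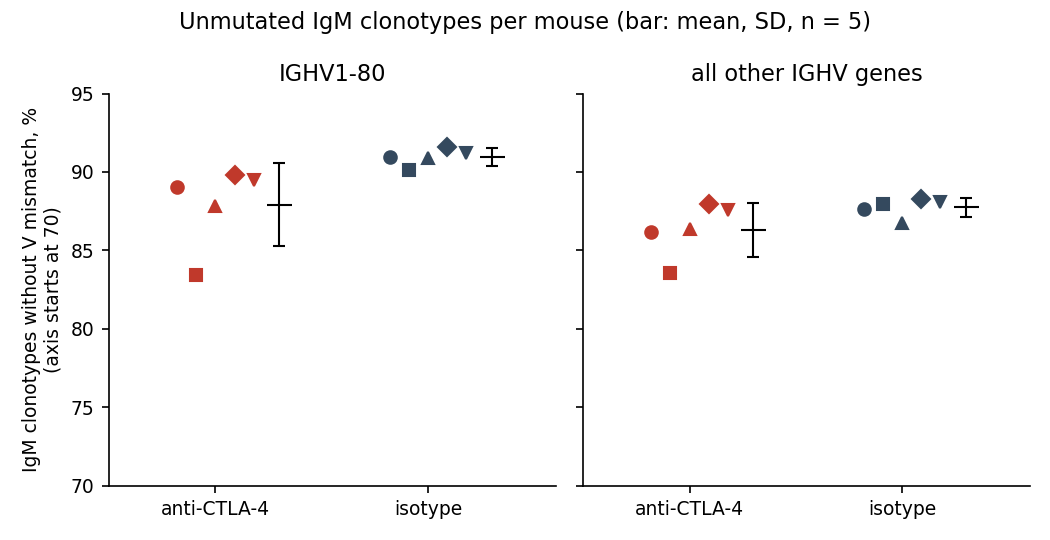
Percent of IgM clonotypes without a V mismatch in each mouse, for IGHV1-80 (left panel) and all other IGHV genes (right panel), with anti-CTLA-4 mice in red left of isotype mice in dark blue. The y axis starts at 70%, marker shapes give the replicate number, and bars give the mean and SD of 5 mice; for IGHV1-80 the anti-CTLA-4 mice lie at 83.4 to 89.8% and the isotype mice at 90.1 to 91.6%.

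CDR3 length in IgM did not separate the groups. It averaged 11.9 ± 0.173 amino acids in anti-CTLA-4 mice and 11.8 ± 0.118 in isotype mice (difference 0.0991, exact permutation p = 0.302).

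Set against the rest of the repertoire within each mouse, IGHV1-80 was less mutated in IgM. It had 0.0467 ± 0.0173 V mismatches per 100 nucleotides of IgM clonotypes, against 0.0776 ± 0.0113 for all other single-gene IGHV calls (SD, n = 10 mice). The gene was lower in 10 of 10 mice, with a mean difference of -0.0309 (two-sided exact sign-flip permutation test, p = 0.00195, the smallest possible; adjusted over 6 measures 0.0117). Against the other IGHV1 genes alone the difference was -0.0422. With V positions mismatched in over 50% of the IgM clonotypes of their gene left out, it was -0.0192, with the same adjusted exact permutation p of 0.0117.

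Its J partners differed slightly from those of other genes. IGHJ2 joined 34.5 ± 2.00% of IGHV1-80 IgM clonotypes, against 31.9 ± 0.466% of the others, higher in 9 of 10 mice (exact sign-flip permutation, adjusted p = 0.0156). IGHJ4 joined 26.0 ± 1.32% against 27.9 ± 0.355%, lower in 9 of 10 mice (adjusted p = 0.0117, exact permutation), and IGHJ1 14.3 ± 1.49% against 15.5 ± 0.276%, lower in 9 of 10 (adjusted p = 0.0381, exact permutation). IGHJ3, at 25.2 against 24.7%, and CDR3 length, at 11.9 against 11.8 amino acids, did not pass (exact permutation p = 0.318 for each).

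None of the 3 J calls held when IGHV1-80 was set against IGHV1 genes alone. The differences were then 1.19 percentage points for IGHJ2, -1.02 for IGHJ4 and -0.161 for IGHJ1 (adjusted p 0.219, 0.0820 and 0.848, exact permutation). When clonotypes counted once were left out they were 1.40, -1.70 and -0.392 and also missed the threshold. The IGHJ1 call was also lost when any mouse but anti-CTLA-4 mouse 2 or 4 was left out, with differences of -1.33 to -0.879 and adjusted exact permutation p values of 0.0527 to 0.0762.

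Across the 10 mice the genes whose share of all clonotypes ran most like that of IGHV1-80 were IGHV7-3 (Pearson r = 0.64), IGHV1-58 (0.58) and IGHV1-59 (0.52), among 66 genes with a mean share of at least 0.2%. These correlations share the libraries and the closed sum of shares and are given as a description.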

How the data were processed

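RNA of whole cells from each mouse's nodes was extracted with a column kit, and libraries were made with a mouse B cell receptor kit with molecular identifiers, per the labels' protocols. Each mouse has an AIRR table deposited by the authors, with a whole-number count for every assembled sequence, per the file headers. Aligner, germline set, genome build and handling of the identifiers were not given in the sources used here, and the counts showed no normalisation by the authors. Treatment labels gave the groups and sample titles the replicate numbers. The gene, its measures and the lists were chosen with earlier results of these data known.

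The most counted sequence stood for its clonotype. V mismatches were counted over at least 200 aligned nucleotides and only before the junction, since the last aligned V bases collected mismatches even in IgM. Tied rearrangements were kept in each mouse, 187 entries when each is counted once per mouse that held it. Usage was tested with edgeR 4.0.16 (glmQLFit, glmQLFTest, TMM, filterByExpr) on clonotype numbers of all IGHV names, in R 4.3.3, with Benjamini-Hochberg adjustment and a threshold of 0.05. Simulated data used a fixed dispersion for all genes that was not estimated from these mice. In them 93.5% of 2-fold changes were recovered over all classes (102 genes), 88% in IgM (100 genes) and 86% in IgD (85 genes). False calls made up 5.56, 0.565 and 4.97% of the calls, in that order. These shares describe the simulated setting and not the power in these mice. Values per mouse were compared by exact permutation over all 252 reassignments, or by sign flips within mice. Python 3.11.15, NumPy 2.4.6, pandas 2.3.3 and SciPy 1.17.1 were used. Alternatives were DESeq2 1.42.0, no TMM, no filter, counts or lineages for clonotypes, sequences with a count of 1 left out, shared rearrangements kept, joint calls included, junction identities of 85 or 95%, strain variant positions left out, 1 value per lineage, the other IGHV1 genes alone, the replicate block and each mouse left out. Same-numbered mice did not deviate together in every pair (correlations of -0.10, 0.13, 0.11, 0.21 and 0.18), so the numbers were not taken as pairs. Intervals cover counting error only. Genes named beside IGHV1-80 were the 3 most alike in use and the 3 most alike in germline sequence, and lineages and positions were the largest per mouse, the leading IgG clonotype per mouse and the 5 positions mismatched in most IgG lineages. Substitutions of the isotype mouse 5 lineage were named after their values were seen.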

Additional observations from a re-analysis of the deposited data

Results flagged for a closer look

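In 6 of 40 sets of 5 mice the highest or lowest mouse lay far from the others. The sets overlap and the gene was chosen by its IgG values, so this number cannot be set against a chance rate. Isotype mouse 5 accounted for 4 of the 6, in linked measures. IGHV1-80 made up 33.0% of its IgG clonotypes, with 64 such clonotypes. Over all classes it had 0.205 V mismatches per 100 nucleotides, and 82.3% of its clonotypes were without a mismatch. Anti-CTLA-4 mouse 2 had 0.129 V mismatches per 100 nucleotides over all classes, the highest of its group. In anti-CTLA-4 mouse 4, 0% of the IGHV1-80 IgG count was without a mismatch, in a mouse with 1 such IgG sequence.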

How the results depend on the processing

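Of the tested values recomputed under an alternative, 142 kept their direction and their side of the threshold, 26 kept the direction but no longer passed and 13 changed sign. Of the untested IgG differences, 28 kept their sign and 2 changed it. IgG lineages numbered 68 and 80 at 85 and 95% junction identity, against 69. The sign changes lay in differences that were near 0 or rested on isotype mouse 5. IgD usage, a log2 fold change of -0.02, became 0.0094 with shared rearrangements kept, 0.0438 with counts of at least 2 and 0.0032 by deposited counts. It ran from -0.0440 to 0.0164 when single mice were left out, with 0.0090 and 0.0164 without anti-CTLA-4 mouse 3 or 5 and 0.0057 and 0.0056 without isotype mouse 3 or 4. Usage over all classes ran from -0.0129 to 0.0747 and turned to -0.0129 and -0.0011 without anti-CTLA-4 mouse 2 or isotype mouse 5. IgM usage ran from -0.0275 to 0.0770 and turned to -0.0081, -0.0159 and -0.0275 without anti-CTLA-4 mouse 1 or 2 or isotype mouse 5. By deposited counts these 2 log2 fold changes were larger, 1.19 over all classes and 0.65 in IgM. None of these usage values passed the threshold. IgG usage was 1.11 percentage points by lineages and ran from -7.20 to 0.698 over mice left out, and IgG mismatches from -0.607 to -0.102. The IGHJ3 difference became -0.0087 against IGHV1 genes alone. The IGHJ1, IGHJ2 and IGHJ4 differences no longer passed at counts of at least 2 (-0.392, 1.40 and -1.70) or against IGHV1 genes alone (-0.161, 1.19 and -1.02), nor did IGHJ1 with shared rearrangements kept (-1.12). Over mice left out they ran from -1.56 to -0.879, from 2.19 to 3.02 and from -2.12 to -1.72. With the replicate block the IgM differences of 0.0192 in mismatch density and -3.04 percentage points in unmutated share had adjusted exact permutation p values of 0.0938. Over mice left out they ran from 0.0105 to 0.0237 and from -3.51 to -1.92, and the mismatch difference against other genes from -0.0328 to -0.0293. The IgM density difference was 0.0125 with 1 value per lineage and 0.0294 at counts of at least 2, and the difference against other genes -0.0192 without strain variant positions, all past the threshold. Including the junction end of the V alignment, chosen after seeing the data, gave 0.0214, -2.99 and -0.0352. The block changed no call of IGHV1-80 usage. The cause of these changes was not tested. IgA, IgE and the IgG of anti-CTLA-4 mouse 4 held too few clonotypes for a comparison.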
